A study of Mus musculus with 16 samples.

Results

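The expression profile of lumbar dorsal root ganglia (DRG) is described here in the 5 vehicle libraries of a series of 16, chosen by their vehicle label. The vehicle mice were C57BL/6, carried an inflamed paw from an intraplantar injection of 20 µl of carrageenan at 2%, received PBS intrathecally 6 days later, and had DRG L3 to L5 removed 6 hours after that. The remaining mice had the same paw inflammation and received either 1 µg of a fusion protein of IL4 and IL10 (n = 6) or 0.5 µg of each unlinked cytokine together (n = 5). All 3 groups therefore share the strain, the carrageenan and an intrathecal injection, and none of them is uninflamed, so that what the inflammation itself did to these levels cannot be read from these samples. The question put to the vehicle libraries was which genes of neurons, glia and immune cells the ganglia held in this state, at what level, and how far 5 libraries of 1 group differed from each other. The labels do not say whether ganglia of several mice were pooled or whether each library came from its own mouse. They give no sex or age, and no test between groups was made.

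A DRG holds the cell bodies of the sensory neurons that innervate skin, muscle and viscera. Small unmyelinated and thinly myelinated nociceptors report damage, heat and inflammatory mediators, while large myelinated neurons report touch and limb position. Each cell body is wrapped by satellite glial cells, its axon is accompanied by Schwann cells, and resident macrophages, blood vessels and connective tissue fill the rest. In RNA from whole ganglia, fewer cells of a type and less RNA per cell cannot be told apart.

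The deposited values were variance-stabilised log2 values, in which a gene without reads sits near a common floor and a gene was taken as detected when its mean over the 5 libraries was at least 6.99. To compare genes with each other, each value was decoded to the whole number behind it, divided by the gene's exon length in kilobases and scaled to a sum of 1000000 per library. That quantity is called the level here, and its unit is parts of that sum, written ppm. When 5 values stand in a row they run from replicate 1 to replicate 5, and every ± is an SD over the 5 libraries (n = 5). The spread of a gene is the SD of its deposited log2 values. By this rule 13363 of 36722 genes were detected (36.4%), 12836 (35.0%) reached that value in every library, and among protein-coding genes 12983 of 21576 (60.2%). The median detected gene had a level of 21.8 ppm and a spread of 0.12 on the log2 scale, and the 10.0% of detected genes with the largest spread, 1337 genes with an SD of 0.221 or more, are called variable. Counts of variable genes in the lists are read beside that 10.0%. Among the listed genes Aif1 and Trpc5 lay just above the detection level, at mean log2 values of 6.99 and 7.01, and Ccnb2 and Hrh3 just below it, at 6.98 each.

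The decoded values summed to between 17.2 M and 18.7 M per library (M, 1000000), but they had been scaled before deposit, so that the sequencing depth is unknown. Replicates 1 and 4 stood apart by GC content and exon length. Replicate 1 leaned to GC-rich and short genes (0.106 log2 units per SD of GC content, -0.0809 per SD of log2 exon length) and replicate 4 leaned the other way (-0.0812 and 0.0553). Replicate 1 also held short non-polyadenylated RNAs that polyA selection should remove: the 7SK RNA Rn7sk was at 3723, 144, 12.0, 9.93 and 15.1 ppm and the RNase P RNA Rpph1 at 1825, 37.1, 2.76, 2.58 and 5.23; in both, replicate 1 lay far above the other 4 libraries. Of all detected genes, 40.3% had their highest value in replicate 4 and 23.5% in replicate 1, while 39.3% had their lowest value in replicate 1 and 19.8% in replicate 4; replicate 5 was highest for 17.6% and lowest for 16.5%. Replicate 2 was highest for 9.5% and lowest for 9.9%, and replicate 3 was highest for 9.2% and lowest for 14.5%. Counts of highest and lowest libraries in the lists stand beside these shares. A list of 5 RNAs read as signs of RNA or library quality deviated by 0.68, 0.73, -0.51, -0.11 and -0.72 on the log2 scale. Of these 5, 4 were variable (10.0% of all detected genes were), and 2 were lowest in replicate 1. The mitochondrial ribosomal RNA mt-Rnr1 was at 7891, 7211, 3106, 3815 and 1993 ppm. Lars2 was at 633, 306, 101, 133 and 73.0, and both were highest in replicates 1 and 2. Replicate 4 also held skeletal muscle messages. Replicate 5 carries label number 18, while the others carry 1 to 4, so that its late number and the library itself cannot be told apart.

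The label of the tissue was checked against defining genes. The 3 highest nuclear genes by mean level were neuronal. Sncg, the synuclein of sensory neurons, reached 8758 ± 994 ppm, ahead of Tubb3, the neuronal beta-tubulin, at 4533 ± 1001 and Nefl, the light neurofilament chain, at 4493 ± 719. The ribosomal RNA gene n-R5-8s1 came next by its mean of 4064, with 19872, 386, 20.8, 31.9 and 9.87 in the libraries. In replicate 1 it lay above Sncg, which was at 9594 there. All 23 measured genes of neuronal and sensory neuron identity were detected. Of 16 genes of spinal cord neurons and central glia only 4 were detected, and the myelin genes Mog and Opalin, the motor neuron genes Chat and Mnx1 and the inhibitory neuron genes Gad1, Gad2, Slc32a1 and Slc6a5 were below the detection level. The 4 detected ones were the astrocyte genes Aqp4 and Aldh1l1 at 16.9 ± 2.33 and 12.1 ± 0.960 ppm, the glutamate transporter Slc1a2, which is also on the satellite glia list, at 3.01 ± 0.279 and the choline transporter Slc5a7 of cholinergic neurons at 2.32 ± 0.662.

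**Figure D1:**
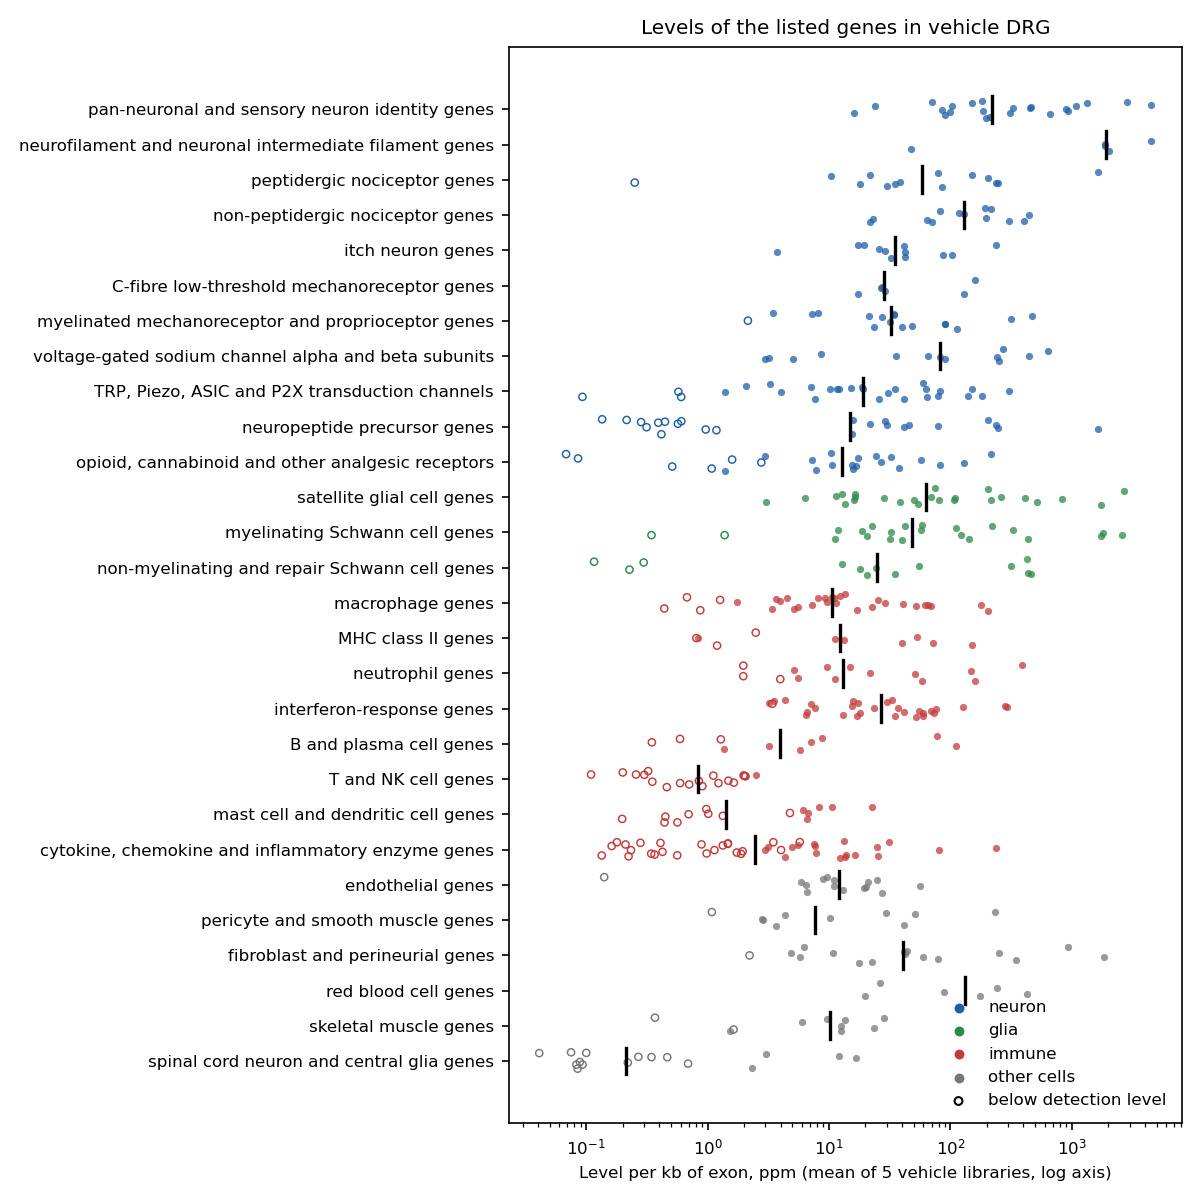
Mean level of each listed gene over the 5 vehicle libraries (per kb of exon, ppm, log axis), 1 row per gene list, with filled points for detected genes, open points for genes below the detection level and a vertical bar at the list median. Most medians of neuronal and glial lists lie to the right of most immune ones, and the lists with the most open points are those of cytokines, T and NK cells, spinal cord genes and neuropeptides.

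Neuronal and glial genes were detected more completely than immune genes, and the neuronal ones had the smallest share of variable genes of the 3 classes. Over the 16 neuronal lists, 231 of 267 genes were detected (86.5%) and 33 of the detected genes were variable (14.3%, beside 10.0% of all detected genes), with a median level of 34.2 ppm. The 3 glial lists held 58 genes, of which 53 were detected (91.4%) and 22 (41.5%) variable. The 10 immune lists held 201 genes, of which 133 were detected (66.2%) and 75 (56.4%) variable, at a median level of 15.8 ppm. The median spread was 0.14 for the neuronal, 0.21 for the glial and 0.25 for the immune genes, beside 0.12 for all detected genes.

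Among the identity genes, Uchl1, a deubiquitinase that fills the cytoplasm of sensory neurons (ENSMUSG00000029223, GRCm38 chromosome 5, 66676091 to 66687234), reached 3339.6, 2467, 2819.6, 2355 and 3252 ppm. It was highest in replicates 1 and 5 and lowest in replicates 2 and 4, and Tubb3 (ENSMUSG00000062380, GRCm38 chromosome 8, 123411424 to 123422015) had the same order of libraries at its extremes, with 5487, 3760.5, 4695, 3262 and 5459. Stmn2, a regulator of axonal microtubules, was steadier at 1268, 1312, 1397, 1319 and 1421, a spread of 0.06. The sensory transcription factors Isl1 and Pou4f1 were at 103 ± 7.51 and 98.5 ± 18.3 ppm, and Prdm12, which specifies nociceptors, at 182 ± 24.5. Slc17a6, the vesicular glutamate transporter of most DRG neurons, was at 197 ± 12.5. Of the 23 genes, 5 were variable (Uchl1, Tubb3, Pou4f1, Map2 and Tlx3), 3 without replicate 5, and the list's median deviation per library stayed between -0.07 and 0.08 on the log2 scale. Tlx3 had the widest spread of these, 0.66, with 57.6, 14.1, 16.8, 8.44 and 22.5 ppm, and replicate 1 lay above all others.

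Neurofilaments mark large myelinated neurons and peripherin marks small ones. Nefl was at 5402, 3811, 4155, 3977 and 5122 ppm, Nefm at 2013 ± 167 and Nefh at 1879.9 ± 166. Nefl exceeded Nefh in all 5 libraries, by 2.38 ± 0.248-fold. Prph, which encodes peripherin, was at 2534, 1642, 1872, 1503 and 1879 ppm and was highest in replicate 1, with the other 4 libraries between 1503 and 1879.

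Peptidergic nociceptors release the neuropeptides CGRP and substance P. Calca (ENSMUSG00000030669, GRCm38 chromosome 7, 114631478 to 114636357), whose gene value does not separate the calcitonin message from that of CGRP, was the highest neuropeptide gene at 1739, 1527, 1819, 1420.2 and 1764 ppm. Its paralog Calcb was at 245 ± 37.3 and Tac1, the substance P precursor, at 195, 208, 226, 208 and 187. Calca exceeded Tac1 in every library, by 8.11 ± 1.07-fold, and reads of the similar Calca and Calcb sequences may be shared between them. Gfra3, the artemin receptor, was at 85.0 ± 14.6 ppm. Of 14 genes of this list 13 were detected and none was variable when all libraries were used, against 3 without replicate 5 and 1 without replicate 1, 3 or 4. Cckbr lay below the detection level.

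Non-peptidergic nociceptors depend on GDNF-family ligands and respond to ATP. Their receptor Ret was at 403, 390.4, 392, 438 and 412 ppm, the purinergic channel P2rx3 (ENSMUSG00000027071, GRCm38 chromosome 2, 84998583 to 85037462) at 291, 299.8, 326, 319 and 297 and Mrgprd (ENSMUSG00000051207, GRCm38 chromosome 7, 145314835 to 145324086), the beta-alanine receptor that defines the class, at 177, 195, 209.9, 214 and 191. Replicate 4 was the highest library for Ret and Mrgprd and replicate 3 for P2rx3, and the lowest library was replicate 1 for Mrgprd and P2rx3. All 13 genes of the list were detected and none was variable (2 without replicate 1); their median spread, 0.09, was below the 0.12 of all detected genes. The list deviated by -0.04, -0.03, -0.03, 0.14 and -0.02 on the log2 scale, so that replicate 4 lay above the other 4 libraries, and 10 of the 13 genes were highest there, as were 40.3% of all detected genes. Replicate 4 is also the library that leaned to longer exons. After removal of trends with GC content and length none of the genes was variable, and the deviation after that removal is not reported here.

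Genes of itch-transmitting neurons had a list median of 35.2 ± 2.02 ppm, beside 58.3 ± 3.64 for peptidergic and 130.3 ± 6.34 for non-peptidergic nociceptor genes. Mrgpra3 and Mrgprx1, receptors for chloroquine and for a bovine adrenal peptide, were at 104 ± 13.3 and 87.8 ± 10.8 ppm, although members of the Mrgpr family are similar enough for reads to be shared. Nppb, the itch peptide, was at 43.8, 42.5, 43.5, 41.8 and 35.8, Sst at 28.9 ± 5.62 and Il31ra, a chain of the receptor for the itch cytokine IL31, at 26.1 ± 3.83. All 12 genes of the list were detected and none was variable (1 without replicate 1), and Hrh1, the histamine receptor, was the lowest at 3.73 ± 0.174. Genes of the unmyelinated touch fibres included Th, tyrosine hydroxylase, at 173, 152, 171, 138 and 168 ppm, Fam19a4 at 27.0 ± 2.22 and the transporter Slc17a8 at 17.4 ± 2.11. Replicate 4 was lowest for Th and highest for 5 of the 6 genes of that list, beside 40.3% of all detected genes.

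Myelinated mechanoreceptors and proprioceptors were represented by Pvalb, parvalbumin, at 329, 304, 283, 359 and 296 ppm, by Spp1 at 469 ± 78.5 and by the neurotrophin receptors Ntrk2 and Ntrk3 at 48.7 ± 6.32 and 8.06 ± 1.25. Of 17 genes 16 were detected. Spp1, which macrophages and other cells can also express, Calb2 and Maf were variable, and Mafa lay just below the detection level at 2.15 ± 1.62 ppm. The list deviated by -0.03, -0.02, -0.09, 0.16 and -0.02, again highest in replicate 4.

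Sodium channels formed a graded series. Scn10a (ENSMUSG00000034533, GRCm38 chromosome 9, 119608456 to 119719322), the tetrodotoxin-resistant channel NaV1.8 of nociceptors, was highest at 597, 600.3, 656, 608 and 714 ppm, and Scn11a (ENSMUSG00000034115, GRCm38 chromosome 9, 119753759 to 119825456), which encodes NaV1.9, followed at 382, 432, 436, 519 and 438. The ranges of these did not overlap, and Scn10a was higher in all 5 libraries. The subunit Scn4b and the alpha subunit Scn9a (ENSMUSG00000075316, GRCm38 chromosome 2, 66480080 to 66634962), which encodes NaV1.7, were at 254 ± 21.1 and 242 ± 28.7. Their ranges overlapped, and their order differed between libraries, while both stayed below Scn11a in all 5. Scn10a exceeded Scn9a 2.65 ± 0.357-fold, with every library between 2.32 and 3.06.

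Scn1a and Scn8a, the NaV1.1 and NaV1.6 channels of myelinated neurons, were at 91.1 ± 10.9 and 65.6 ± 6.49 ppm, and Scn3a, an embryonic channel that nerve injury can bring back, at 3.21 ± 0.613. All 13 genes were detected and 1, Scn2a1, was variable (7.69%, beside 10.0% of all detected genes). The list deviated by -0.15, -0.02, -0.02, 0.16 and -0.05 on the log2 scale, lowest in replicate 1 for 7 of 13 genes (39.3% of all detected genes were lowest there) and highest in replicate 4 for 9 (40.3%). Without replicates 1 and 4 no sodium channel gene was variable, and without replicate 4 or replicate 5 alone 2 were. Orders between genes are given by the number of libraries that showed them, with no test.

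Channels that turn stimuli into current were led by P2rx3 at 307 ppm. Asic3, an acid sensor, reached 188, 161, 188, 152 and 219.8, Trpv1 (ENSMUSG00000005952, GRCm38 chromosome 11, 73234292 to 73261242), the receptor for heat and capsaicin, 147, 139.8, 179, 127 and 156, and Piezo2 (ENSMUSG00000041482, GRCm38 chromosome 18, 63010213 to 63387183), the channel of touch, 109, 139.6, 144, 168 and 134. P2rx3 did not overlap with Asic3, whereas Asic3, Trpv1 and Piezo2 overlapped as neighbours. Trpa1, a receptor for irritants, was at 70.3, 81.0, 81.2, 88.5 and 74.3 and Trpm8, the cold and menthol receptor, at 48.2, 64.1, 67.7, 74.8 and 58.0. Trpv1 exceeded Trpa1 in all libraries, by 1.91 ± 0.321-fold, and Trpm8 by 2.45 ± 0.524-fold.

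Within the Piezo, P2X and ASIC families 1 member stood above the relative set beside it. Piezo2 exceeded Piezo1 35.6 ± 11.8-fold and P2rx3 exceeded P2rx2 44.6 ± 7.67-fold, in 5 of 5 libraries each. P2rx2 was the lowest detected P2X gene at 7.11 ppm, while P2rx6, P2rx4, P2rx5 and P2rx7 were at 30.4, 19.3, 18.8 and 15.2. Asic3 exceeded Asic1 4.40 ± 0.849-fold, and Asic2, at 64.8 ppm, lay between these. Trpc5 was detected only just, at 1.39 ± 0.350 ppm, and P2rx1, Trpv3 and Asic4 were below the detection level. Of the 28 genes 25 were detected and none was variable, with 1 or 2 variable when any single library was left out.

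Potassium channels set the resting state and firing threshold of these neurons. Kcna1 was highest at 439, 528, 502, 652 and 548 ppm, followed by Kcnd1 at 196 ± 8.17 and the leak channel Kcnk1 at 129.9 ± 8.85. Kcnq3 was at 3.06 ± 0.207. Kcnk18, the TRESK channel, was at 13.4 ± 1.94. Of 32 genes 31 were detected and 3 of them (9.68%, beside 10.0% of all detected genes), Kcna2, Kcnh2 and Kcnk12, were variable. Kcnn3 lay below the detection level. The count of variable genes was 5 without replicate 2, 6 without replicate 5 and 1 without replicates 1 and 4.

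Calcium channels control transmitter release and are a target of analgesics. Cacna1b, the N-type channel, was at 54.8, 63.3, 66.6, 67.4 and 60.4 ppm and Cacna1h, the T-type channel of touch neurons and nociceptors, at 15.4 ± 0.796. Cacna2d1, the subunit bound by gabapentin, was at 76.7, 98.8, 105, 108 and 86.0 and exceeded Cacna2d2 5.48 ± 0.330-fold in all libraries. Replicate 1 was the lowest library for Cacna1b and Cacna2d1. Of 15 genes 14 were detected and 2 of them (14.3%, beside 10.0% of all detected genes) were variable, Cacna1d and Cacna1e, both lowest in replicate 1. Without replicate 1, and after removal of trends with GC content and length, 0 were variable, and without replicate 3 the count was 1. Cacna1g, the other common T-type gene, lay below the detection level at 0.487 ± 0.278.

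Neuropeptide precursors ranged from clearly present to near the floor. Of 23 genes 12 were detected (52.2%, beside 60.2% of protein-coding genes). Beside Calca, Calcb, Nmb and Tac1 the detected genes included Adcyap1, the precursor of the migraine-related peptide PACAP, at 79.9 ± 5.02 ppm, Gal, galanin, at 38.2, 25.2, 37.2, 20.3 and 30.5 and Penk, the enkephalin precursor, at 15.9 ± 3.37. Npy, Vip, Cck, Crh, Grp and the opioid precursors Pdyn and Pomc were below the detection level, Npy at 0.724, 0.747, 0.779, 1.09 and 2.58. Vgf, a secreted peptide precursor induced by neurotrophins, was the only variable member, at 85.5, 42.5, 36.7, 25.9 and 38.6, with replicate 1 above the others and replicate 4 below them. Without replicates 1 and 4 no member was variable, and without replicate 5 the count was 2.

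Receptors through which analgesics act were detected for 18 of 24 genes, and none was variable with all libraries, against 2 without replicate 4 and 1 without replicate 2 or 5. The GABA-B subunits Gabbr1 and Gabbr2 were highest at 206, 209.9, 218, 244 and 204 and 129.6 ± 12.4 ppm. The opioid receptors were lower: Oprl1, the nociceptin receptor, at 24.3 ± 1.61, Oprd1 at 13.8, 15.8, 18.8, 17.3 and 13.7, Oprm1 (ENSMUSG00000000766, GRCm38 chromosome 10, 6758506 to 7038198), the mu receptor of morphine, at 11.3, 16.6, 18.3, 15.6 and 15.3, and Oprk1 at 1.39 ± 0.206. Oprd1 and Oprm1 overlapped in range. Gabbr1 exceeded Oprm1 14.4 ± 2.55-fold in all libraries. The cannabinoid receptor Cnr1 was at 26.6 ± 3.45, while Cnr2, the receptor of immune cells, lay below the detection level at 1.08 ± 0.415. Htr1d, a target of triptans, was at 57.7 ± 5.30 and the adenosine receptor Adora1 at 82.6 ± 3.53.

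Receptors for inflammatory mediators were detected for 28 of 33 genes. Il6st, the shared signalling chain of the IL6 family, was at 209, 218, 208, 196 and 221 ppm, whereas Il6ra, the chain that binds IL6 itself, was at 1.96 ± 0.386, so that Il6st exceeded it 110.1 ± 18.8-fold. Lifr and Osmr, chains for related cytokines, were at 239 ± 34.4 and 42.5 ± 4.82. The serotonin-gated channel Htr3a was at 273 ± 22.4 and Ptgir, the prostacyclin receptor, at 65.1 ± 5.85, while the prostaglandin E2 receptors Ptger1, Ptger4 and Ptger3 were at 12.2 ± 0.699, 7.97 ± 0.272 and 4.76 ± 0.716 and Ptger2 lay below the detection level. The bradykinin receptor Bdkrb2 was just above it at 1.90 ± 0.218, and Bdkrb1, F2rl1, Hrh3 and Hrh4 were below.

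Of the 28 detected receptors 4 were variable (14.3%, beside 10.0% of all detected genes), and 3 of these 4 bind cytokines. Il1r1, the receptor for IL1, was at 19.6, 19.4, 10.9, 12.2 and 19.2 ppm, with replicates 1, 2 and 5 above replicates 3 and 4 without overlap. Tnfrsf1a, the widely expressed TNF receptor, was at 67.0, 60.5, 47.2, 37.9 and 60.01, in the same order of the 2 sets. Tnfrsf1b, the TNF receptor of immune cells, was instead lowest in replicates 4 and 5, at 8.75, 6.76, 7.10, 4.09 and 4.05. The fourth was Ngfr, the low-affinity neurotrophin receptor, at 428 ± 68.5.

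Genes that nerve injury is known to switch on in DRG ranged from below the detection level to high levels. Atf3, the usual marker of injured neurons, was at 12.2, 16.0, 11.4, 10.8 and 12.8 ppm, and Sprr1a, Sox11, Npy, Vip, Reg3b and Ecel1 were below the detection level. Gap43, a growth cone protein also made by intact DRG neurons, was at 461 ± 40.0. Serpina3n, a secreted protease inhibitor, was high and variable at 828, 692, 489, 454 and 686. Basp1, Gadd45a, Gal and Stmn4, at 238, 34.8, 30.3 and 29.7 ppm, lay above the 21.8 ppm of the median detected gene. Nts, Flrt3 and Csf1, at 21.7, 18.0 and 13.4, did not. Of 18 genes 10 were detected (55.6%, beside 60.2% of protein-coding genes).

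Immediate-early genes are switched on within minutes of stimulation, and handling of tissue can also induce them. In these libraries they were mostly lowest in replicates 3 and 4. Of 19 genes 17 were detected and 10 were variable, and the count was also 10 without replicates 1 and 4. Junb was at 53.0, 12.2, 6.99, 3.93 and 18.0 ppm, Fos at 24.2, 15.9, 6.09, 6.11 and 14.8 and Fosl2 at 14.0, 14.9, 6.47, 6.81 and 13.7. Replicates 1, 2 and 5 lay above replicates 3 and 4 for each of these. The list deviated by 0.23, 0.13, -0.33, -0.24 and 0.15 on the log2 scale. Of the 17 detected genes 16 had their lowest value in replicate 3 or 4, where 14.5% and 19.8% of all detected genes were lowest. The highest library was replicate 1 or 2 for 6 genes each and replicate 5 for 5.

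Satellite glial cells buffer potassium and transmitter around each neuron and supply it with lipid. All 25 genes of the list were detected, at a list median of 63.1 ± 3.93 ppm. Apoe, a lipid carrier that macrophages also make, led at 3939.7, 2094, 2622, 1775 and 3037, and S100b, a calcium-binding protein shared with Schwann cells, was steady at 1631, 1694, 1769, 1786 and 1829. Fabp7 (ENSMUSG00000019874, GRCm38 chromosome 10, 57784881 to 57788450), a fatty acid binding protein typical of satellite glia, was at 218, 231, 332, 341 and 190.3, highest in replicates 3 and 4. Glul, glutamine synthetase, was at 455, 484, 535, 477 and 661 and Kcnj10, the potassium channel Kir4.1, at 59.1, 67.4, 72.9, 90.2 and 58.7.

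The lipid synthesis gene Hmgcs1 was at 824 ± 57.0 ppm, a spread of 0.10. The gap junction genes Gja1 and Gjb6 were at 13.5 ± 1.19 and 1.23, 5.69, 10.6, 6.22 and 8.20, and the second of them was lowest in replicate 1. In all, 9 of 25 satellite glia genes were variable with all libraries and 12 without replicates 1 and 4, and the largest spread was that of Gfap (ENSMUSG00000020932, GRCm38 chromosome 11, 102887336 to 102900912), the filament protein that reactive glia increase. Gfap was at 35.8, 9.22, 2.25, 0.925 and 15.5 ppm, an SD of 1.21 on the log2 scale. Replicates 1, 2 and 5 lay above replicates 3 and 4 without overlap, as they did for the immediate-early genes named above.

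Genes of myelinating Schwann cells had some of the highest levels in the ganglia. Pmp22, a compact myelin protein, was at 2518, 2609, 2259.9, 2436 and 3106 ppm and Mbp, myelin basic protein, at 449.9, 399, 361, 383 and 609. Replicate 5 was the highest library for both. Prx, periaxin, was at 124, 115, 104, 109 and 158 and Egr2, the transcription factor of myelination that is also an immediate-early gene, at 25.9, 22.9, 11.7, 13.1 and 29.1.

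Of 22 genes of the list 20 were detected and 12 were variable. Of the 20, 16 were highest in replicate 5, beside 17.6% of all detected genes. The list deviated by -0.08, -0.07, -0.21, 0.09 and 0.27 on the log2 scale. Without replicate 5 the count of variable genes was 4, and without replicates 1 and 4 it was 15. The central myelin genes Mobp and Mog were below the detection level. Among genes of non-myelinating and repair Schwann cells, Scn7a was at 371, 458, 459, 476 and 427 ppm, L1cam at 315 ± 24.8 and Shh at 24.5 ± 3.01. Gdnf, Artn and Olig1, which repair Schwann cells are known to induce after nerve injury, were not detected. Shh and Bdnf, which stand on the same list of non-myelinating and repair genes, were detected, Bdnf at 20.5 ppm.

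**Figure D2:**
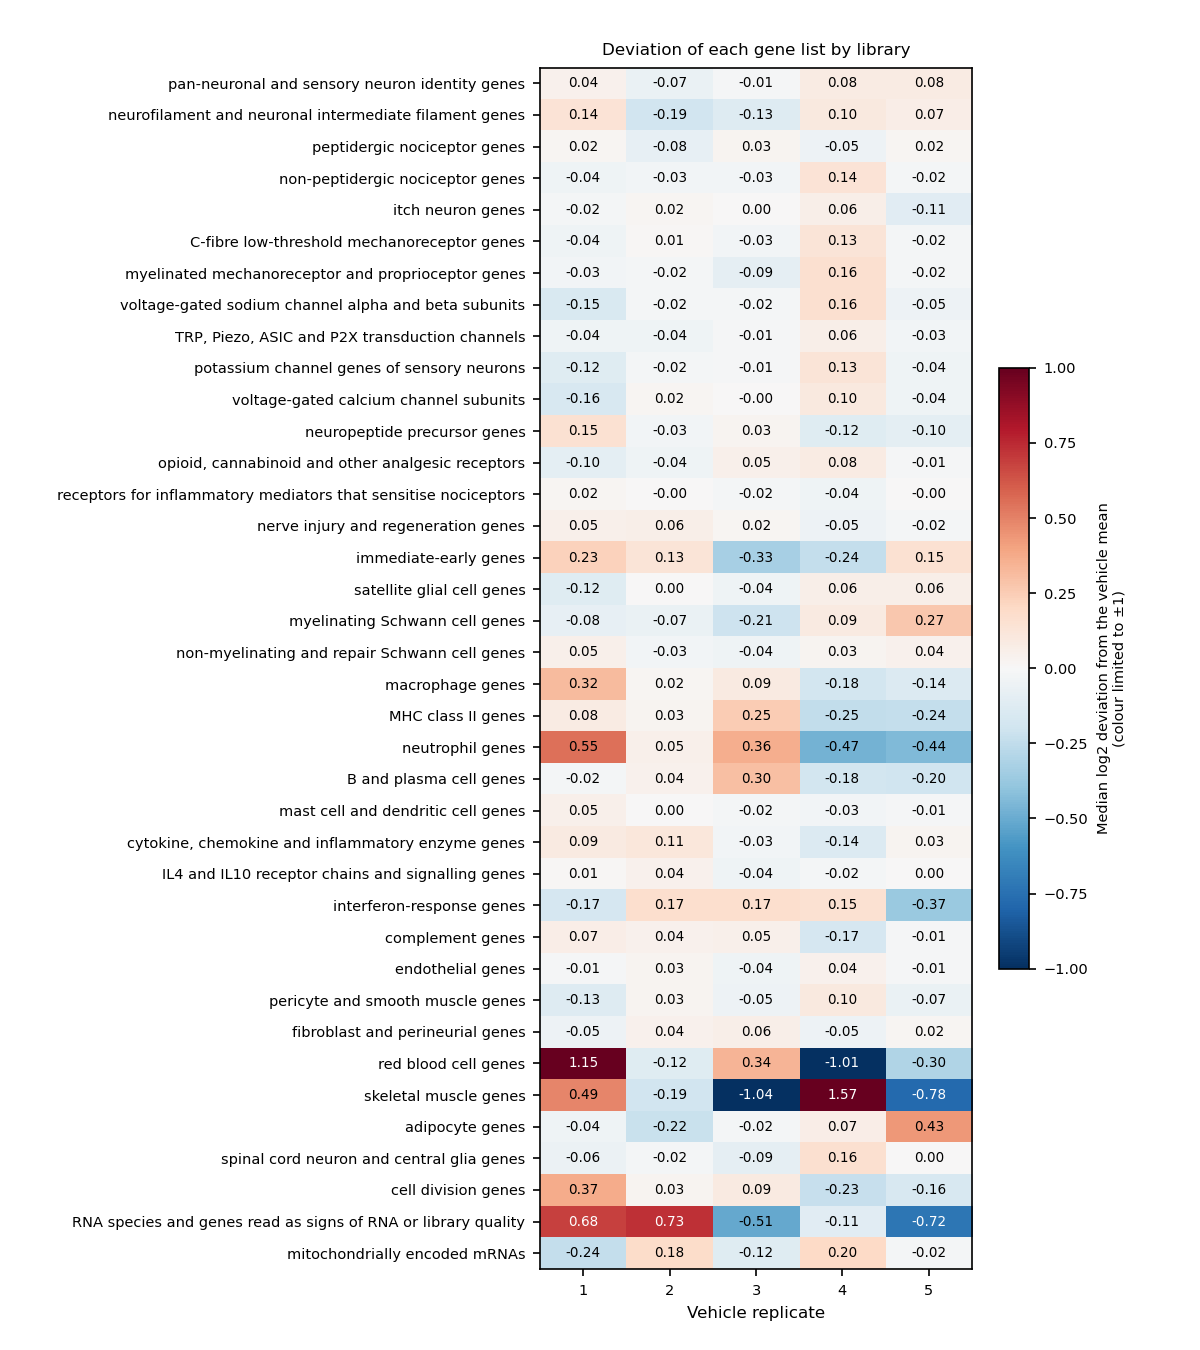
Median deviation of each gene list from the vehicle mean in each library (log2 units of the deposited values, detected genes, 1 row per list and 1 column per replicate, colour limited to 1 in either direction). Neuronal rows other than the immediate-early genes lie between -0.19 and 0.16, the immediate-early row runs from -0.33 to 0.23, and neutrophil, red blood cell and skeletal muscle rows reach 0.55, 1.15 and 1.57 in single libraries.

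Macrophage genes were present at moderate levels. Of 31 genes 27 were detected, with a list median of 10.6 ± 1.59 ppm. The lysozyme gene Lyz2 (ENSMUSG00000069516, GRCm38 chromosome 10, 117277331 to 117282321), which neutrophils also express, was at 224, 162, 249, 141 and 122, the complement genes C1qa and C1qb at 92.6, 59.6, 74.2, 36.3 and 62.6 and 91.2, 65.1, 74.5, 48.7 and 69.8, and the protease Ctss at 78.0, 66.0, 72.4, 55.4 and 38.4. Mrc1, the mannose receptor CD206, was at 33.3, 22.9, 18.47, 15.9 and 22.1, with replicate 1 above the others and replicate 4 below them. Csf1r (ENSMUSG00000024621, GRCm38 chromosome 18, 61100598 to 61132149), the receptor on which macrophages depend, was at 13.5, 12.3, 13.8, 11.6 and 10.3 with a spread of only 0.12.

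The macrophage list deviated by 0.32, 0.02, 0.09, -0.18 and -0.14, and 18 of its 27 detected genes were variable. Replicate 1 was highest for 18 genes (23.5% of all detected genes were highest there). Replicates 4 and 5 were lowest for 24, where 19.8% and 16.5% of all detected genes were lowest. The microglia-like genes P2ry12 and Tmem119 were at 13.6 ± 1.37 and 5.16 ± 1.38 ppm, Adgre1, which encodes F4/80, at 7.22 ± 1.68 and Ccr2, the receptor of recruited monocytes, at 8.18 ± 2.15. Trem2, Timd4, Folr2 and Cd209f were below the detection level. Without replicates 1 and 4, 14 genes were variable.

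MHC class II genes, carried by antigen-presenting cells, followed a similar order. Cd74 was at 174, 156, 189.9, 120.1 and 116 ppm, H2-Aa at 54.7, 55.8, 70.3, 44.9 and 42.1 and H2-Ab1 at 47.9, 39.4, 50.4, 30.0 and 30.4. Replicate 3 was highest and replicates 4 and 5 were lowest for each of these, and the other 3 libraries did not overlap with those 2. Of 10 genes 7 were detected and 4 were variable.

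Neutrophil genes had a wider spread than macrophage genes. S100a9 and S100a8, the chains of calprotectin, were at 544, 412, 557, 228 and 222 and 244, 144, 219, 96.8 and 94.7 ppm, and the granule genes Ngp (ENSMUSG00000032484, GRCm38 chromosome 9, 110419747 to 110423012), Camp and Ltf at 227, 136, 212, 78.3 and 81.0, 81.9, 49.6, 74.7, 22.5 and 27.5 and 34.2, 17.3, 33.1, 11.2 and 12.8. In each of these 5 genes replicates 1, 2 and 3 lay above replicates 4 and 5 without overlap. The list deviated by 0.55, 0.05, 0.36, -0.47 and -0.44 on the log2 scale, and all 11 detected genes of 14 were variable, with a count of 11 also without replicates 1 and 4. Summed over the list, levels were 1284, 879.8, 1247, 505 and 508 ppm. Mpo, a gene of immature neutrophils in bone marrow, was at 12.3, 4.69, 5.34, 2.88 and 2.86, and its partners Elane and Prtn3 were below the detection level on average, with replicate 1 highest for both. Ly6g, the surface marker of mature neutrophils, was below the detection level.

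Red blood cell genes showed a related but not identical order. The beta-globin gene Hbb-bs was at 884, 309.7, 502, 167 and 289.7 ppm and Alas2, which starts heme synthesis in red cell precursors, at 42.1, 26.0, 34.6, 15.0 and 14.9. Replicate 1 was highest for all 6 genes (23.5% of all detected genes) and replicate 4 lowest for 5 (19.8%), and all 6 were variable. Summed over the list, levels were 2072, 729.7, 1142, 337 and 648. The globin copies share sequence, so the split between Hba-a1 and Hba-a2 and between Hbb-bs and Hbb-bt is uncertain. Cell division genes were likewise highest in replicate 1: Mki67 was at 17.7, 10.9, 13.5, 5.02 and 4.85 ppm and Top2a at 7.39, 4.08, 5.11, 1.66 and 1.90, and in both genes replicates 4 and 5 were below the others. How far blood or marrow cells in the dissected tissue contributed to the neutrophil, macrophage and division genes was not tested.

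**Figure D3:**
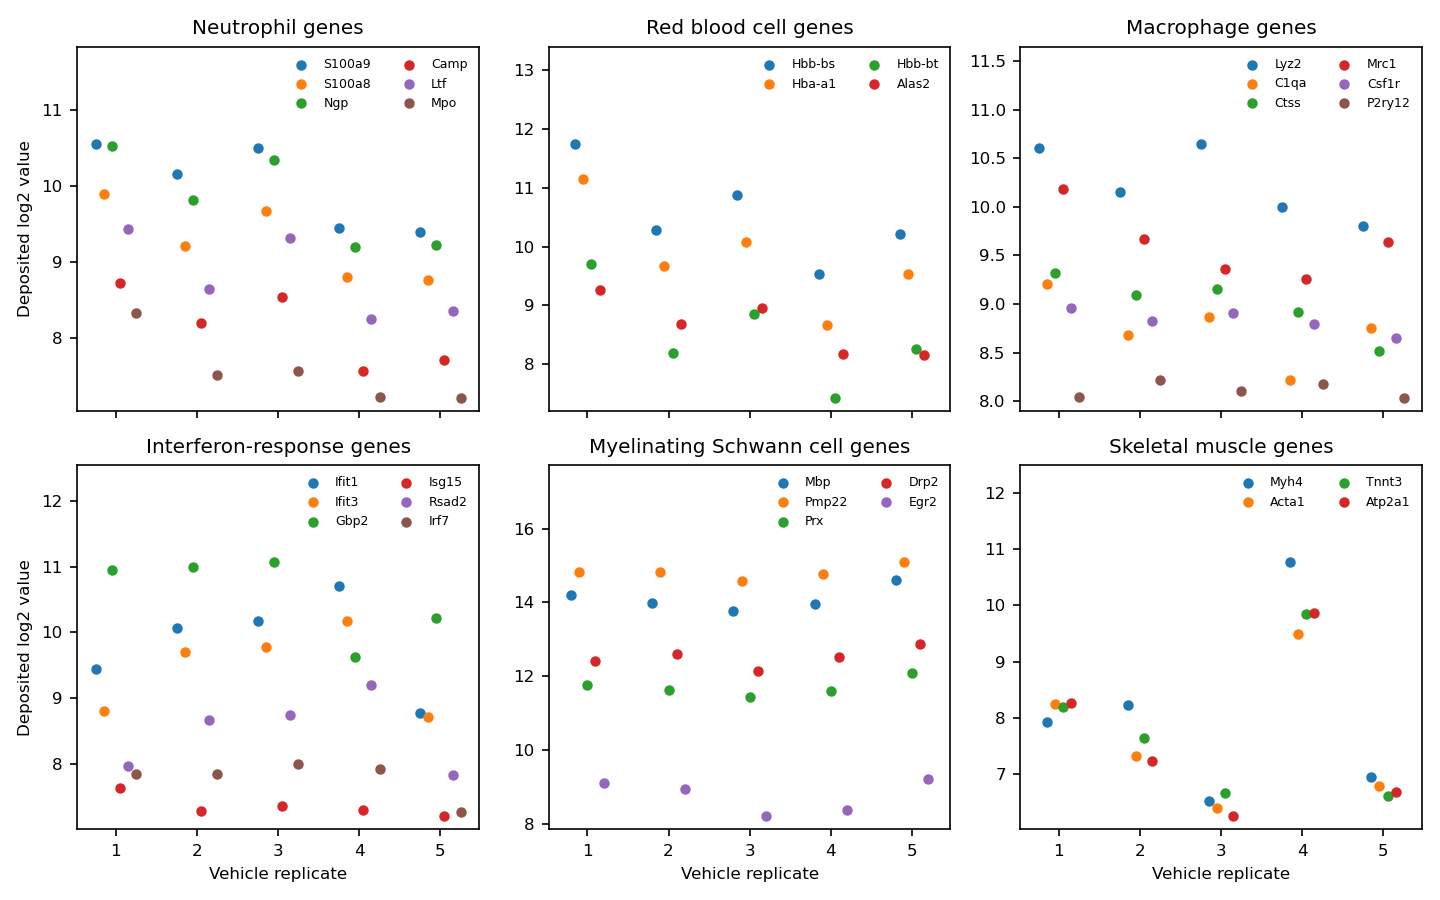
Deposited log2 value of selected genes in each vehicle replicate, 1 panel per gene group. Neutrophil genes are lower in replicates 4 and 5, interferon-response genes such as Ifit1 are lowest in replicate 5, myelin genes are highest in replicate 5 and muscle genes in replicate 4.

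T and NK cell genes gave little signal. Of 19 T and NK cell genes only Lck was detected, at 3.22, 2.38, 2.71, 1.96 and 2.35 ppm, while the T cell receptor genes Cd3e, Cd3d and Cd3g, the co-receptors Cd4 and Cd8a and the regulatory T cell factor Foxp3 were below the detection level, Cd3e at 0.351 ± 0.118. B and plasma cell genes were clearer. Ighm, the heavy chain of IgM, was at 102, 115, 139.6, 98.4 and 104 ppm, Igkc, the kappa chain, at 65.5, 73.5, 108, 54.8 and 87.5 and Cd79a at 8.16, 9.43, 13.9, 6.63 and 6.02. Replicate 3 was the highest library for all 3 of these and for 6 of the 7 detected genes, beside 9.2% of all detected genes. Of the 7, 5 were variable, but only 1 without replicate 3 and 2 without replicate 5.

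Mast cell genes were low but detected, with Cpa3 at 10.6 ± 0.786 ppm and the proteases Mcpt4 and Tpsb2 at 8.33 ± 2.23 and 6.64 ± 1.52. Flt3, a receptor of dendritic cell precursors, was at 22.7 ± 1.90. The listed dendritic cell genes Zbtb46 and Cd209a were detected at 6.77 and 6.15 ppm, while Itgax, Xcr1, Clec9a and Siglech were below the detection level.

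Of 42 genes for cytokines, chemokines and inflammatory enzymes 18 were detected (42.9%), beside 36.4% of all genes and 60.2% of protein-coding genes. Tnf, Il6, Il1a, Ifng, Ifnb1, Il17a, Il4, Il10, Il13, Nos2 and Ptgs2 lay below the detection level. Il1b was just above it at 5.91, 5.76, 4.16, 1.72 and 4.27 ppm, with replicate 4 below the others, and its antagonist Il1rn was at 4.85, 3.13, 1.63, 0.779 and 4.41. Ccl2, which attracts monocytes, was at 19.8, 18.8, 11.0, 6.32 and 13.4, Ccl11, eotaxin, at 124, 96.3, 40.7, 48.4 and 91.4 and Cxcl10, a chemokine induced by interferons, at 3.28, 7.51, 11.5, 14.0 and 2.13. Cxcl10 was highest in replicates 3 and 4, which were the lowest libraries for Ccl11. Mif and Il34 were at 238 ± 95.4 and 31.1 ± 2.64.

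The receptors of the 2 cytokines given to the other groups were measured in vehicle as well. Il4ra (ENSMUSG00000030748, GRCm38 chromosome 7, 125552120 to 125579474), the binding chain for IL4, was at 45.3, 36.5, 30.1, 24.2 and 35.6 ppm and Il2rg, the common gamma chain, at 3.91 ± 0.273, while Il13ra1, the partner of Il4ra outside blood cells, was at 19.6 ± 2.11. Il10ra (ENSMUSG00000032089, GRCm38 chromosome 9, 45253837 to 45269149), the chain specific to IL10, was at 5.27, 5.44, 8.38, 4.05 and 4.30, and Il10rb, which other cytokines share, at 34.0, 37.5, 36.5, 37.7 and 33.6, so that Il10rb exceeded Il10ra 6.96 ± 1.82-fold in all libraries. Il10ra was highest in replicate 3. The downstream genes Jak1, Stat3 and Stat6 were at 338 ± 18.50, 142, 138, 132, 137 and 142 and 100.5, 105, 117, 103 and 108, with spreads of 0.07, 0.08 and 0.04. Of 15 genes 13 were detected and 2 of them (15.4%, beside 10.0% of all detected genes) were variable, Il4ra and Socs3. Socs3, a feedback inhibitor of STAT3 signalling, was at 78.1, 37.6, 13.3, 10.1 and 42.8, with replicates 1, 2 and 5 above replicates 3 and 4.

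Interferon-response genes, which type I and type II interferons switch on, were detected for 29 of 30 genes, and 22 of the 29 were variable. Ifit1 (ENSMUSG00000034459, GRCm38 chromosome 19, 34640871 to 34650009) and Ifit3 (ENSMUSG00000074896, GRCm38 chromosome 19, 34583531 to 34588731), which bind or help to bind viral RNA, were at 44.5, 75.3, 85.0, 119 and 25.3 and 39.0, 86.0, 95.2, 121 and 36.4 ppm. Rsad2 (ENSMUSG00000020641, GRCm38 chromosome 12, 26442746 to 26456452), the antiviral enzyme viperin, was at 6.57, 14.2, 16.0, 22.4 and 5.68 and Mx1 at 1.46, 4.36, 4.37, 10.8 and 0.882. In these 4 genes replicate 5 was lowest and replicate 4 highest, with replicate 1 next to the bottom. Reads of the similar Ifit3 and Ifit3b may be shared.

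Other interferon-response genes had another order. Gbp2, a guanylate-binding protein, was at 151, 161, 177, 54.1 and 88.5 ppm and Igtp (ENSMUSG00000078853, GRCm38 chromosome 11, 58199556 to 58207591), a GTPase of the same defence, at 48.1, 71.3, 93.9, 50.9 and 35.8. Replicate 3 was highest for both, and replicate 4 lay below replicates 2 and 3. Isg15 (ENSMUSG00000035692, GRCm38 chromosome 4, 156199424 to 156200818) was at 24.9, 15.4, 18.1, 15.5 and 13.3, highest in replicate 1, and was not variable, and Ifi27 had one of the smallest spreads of the list, 0.02, at 293 ± 11.4. Over the list, replicate 5 was lowest for 24 of 29 genes, beside 16.5% of all detected genes. The deviations were -0.17, 0.17, 0.17, 0.15 and -0.37 on the log2 scale. Without replicate 5, 14 genes were variable, and without replicates 1 and 4, 24. The interferon genes of the cytokine list, Ifng and Ifnb1, were below the detection level.

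The promoters of these genes are known for the interferon-stimulated response element, to which a complex with IRF9 binds. Stretches of 140 bases before the RefSeq start site (GRCm38.p6) are shown for 5 of them because the group stands out by its spread, for C1qb as a macrophage gene and for Myh4 as a muscle gene, each 5′ to 3′ on the strand of the gene. Capitals mark a match, on either strand, to the response element (the letters GAAA, then any 2 bases, then GAAA again) in the first 5, to AGGAAGT (the core bound by the myeloid factor PU.1) in C1qb and to CAGCTG (an E-box of the kind bound by myogenic factors, which reads the same on both strands) in Myh4. The stretches lie at chr19:34640749-34640888 (+), chr19:34583389-34583528 (+), chr4:156200819-156200958 (-), chr12:26456453-26456592 (-), chr11:58199416-58199555 (+), chr4:136886201-136886340 (-) and chr11:67237672-67237811 (+).
Ifit1: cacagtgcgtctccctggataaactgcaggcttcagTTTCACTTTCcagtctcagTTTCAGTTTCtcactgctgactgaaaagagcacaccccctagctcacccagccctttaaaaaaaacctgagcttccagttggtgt
Ifit3: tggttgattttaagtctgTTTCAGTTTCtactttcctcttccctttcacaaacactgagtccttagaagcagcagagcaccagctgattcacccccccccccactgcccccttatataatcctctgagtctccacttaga
Isg15: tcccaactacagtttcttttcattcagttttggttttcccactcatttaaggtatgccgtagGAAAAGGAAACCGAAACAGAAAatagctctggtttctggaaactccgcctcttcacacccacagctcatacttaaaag
Rsad2: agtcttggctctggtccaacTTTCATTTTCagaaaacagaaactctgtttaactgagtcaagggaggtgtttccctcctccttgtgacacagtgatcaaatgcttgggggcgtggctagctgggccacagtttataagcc
Igtp: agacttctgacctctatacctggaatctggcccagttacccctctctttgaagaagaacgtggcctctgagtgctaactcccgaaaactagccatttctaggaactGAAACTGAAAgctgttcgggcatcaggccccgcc
C1qb: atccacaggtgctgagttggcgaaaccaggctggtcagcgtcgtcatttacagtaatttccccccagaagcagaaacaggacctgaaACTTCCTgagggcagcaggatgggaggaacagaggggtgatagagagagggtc
Myh4: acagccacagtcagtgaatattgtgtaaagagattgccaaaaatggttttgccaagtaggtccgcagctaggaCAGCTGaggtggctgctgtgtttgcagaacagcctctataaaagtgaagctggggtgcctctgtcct
Counted from the start site, Ifit1 held 2 separate matches, from -104 to -95 and from -85 to -76, and Isg15 held 3 that overlap each other between -78 and -57. The other stretches held 1 match each.

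In windows from 250 bases before to 50 after the start site, the response element was found in 16 of 22 interferon-response genes with a window (72.7%), beside 3.44% of all 32851 windows and 3.99% of the 27025 genes with a window. It was held by 2 of 23 macrophage genes (8.70%), 2 of 19 satellite glia genes (10.5%) and none of 19 neuronal identity, 13 neutrophil, 14 myelinating Schwann cell or 7 skeletal muscle genes. AGGAAGT was found in 6 of the 13 neutrophil genes (46.2%) and in 10 of 23 macrophage genes (43.5%), beside 9.35% of all windows. The 6 were S100a8, Mmp8 and Mpo and, below the detection level, Elane, Ly6g and Prtn3. The highest neutrophil gene, S100a9, held no match, and neither did Ngp, Retnlg, Camp and Ltf. CAGCTG was found in 5 of 7 skeletal muscle genes (71.4%), but also in 10 of 23 macrophage genes (43.5%) and 7 of 19 neuronal identity genes (36.8%), beside 16.3% of all windows. The variable Ifit2 and Irf7 held no response element in their windows, while Isg15, which was not variable, did. A match describes the letters and is not a measured binding site.

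Of 18 complement genes 17 were detected and 8 were variable, 3 of them the C1q chains, and without replicates 1 and 4 the count was 4. Cd55 and Cd59a, which protect cells from complement, were at 447, 504, 503, 554 and 512 and 216 ± 12.2 ppm and had small spreads. Serping1, the C1 inhibitor, was at 370.2 ± 36.3 and C3 at 12.9 ± 2.07, while Cfb lay below the detection level.

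Pecam1, an adhesion protein of endothelial cells, was at 20.7, 22.0, 20.6, 21.5 and 20.1 ppm and Cdh5, the endothelial cadherin, at 27.1 ± 3.85. Of 15 endothelial genes 14 were detected and 2 of these (14.3%, beside 10.0% of all detected genes) were variable, 1 without replicate 3. The lymphatic factor Prox1 was not detected. Of 10 pericyte and smooth muscle genes 9 were detected and 3 of the 9 (33.3%) were variable. Rgs5, a pericyte gene, was at 235 ± 33.2 and the smooth muscle actin Acta2 at 21.2, 38.1, 41.7, 65.3 and 40.3, lowest in replicate 1 and highest in replicate 4. Among fibroblast and perineurial genes Apod was at 1914, 1898, 1667, 1758 and 1925 and Dcn, decorin, at 348 ± 35.2, and 15 of 16 were detected and 7 variable.

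Skeletal muscle genes, which mark muscle fibres and not ganglion cells, were the most uneven between libraries. Myh4 (ENSMUSG00000057003, GRCm38 chromosome 11, 67238029 to 67260446), a fast myosin heavy chain, was at 4.53, 6.57, 0.330, 55.6 and 1.01 ppm, Acta1, skeletal actin, at 25.4, 7.98, 0.717, 80.0 and 2.72 and Tnnt3, a troponin, at 23.0, 12.3, 1.95, 103 and 1.58. Replicate 4 was highest for 7 of the 8 detected genes (40.3% of all detected genes), replicates 1 and 2 were next, and replicates 3 and 5 were near the floor. Summed over the 10 genes, levels were 100.3, 43.7, 5.92, 388 and 10.9. All 8 detected genes were variable, but without replicate 4 only 4 were, and without replicates 1 and 4 only 1. Muscle near the ganglia can be taken along at dissection; its part in the deviations of replicate 4 in other lists was not tested. The deviation of replicate 4 lay between -0.24 and 0.16 on the log2 scale in the neuronal lists and was 1.57 in the muscle list.

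Across all detected genes the first axis of the differences between the 5 libraries carried 58.5% of the variance and placed replicates 1 and 4 at its ends (scores of 0.20 and -0.15, with the other 3 between -0.03 and 0.02). Across genes the loadings on this axis had a Pearson correlation of 0.55 with GC content and -0.40 with log2 exon length. These are descriptions over genes, which share the libraries and are not independent. The next 2 axes carried 22.0% and 13.7%. Variable genes had a median GC content of 49.9% against 45.8% for all detected genes, and 701 of the 1337 variable genes (52.4%) were highest in replicate 1, while 644 (48.2%) were lowest in replicate 4. Over all detected genes these shares were 23.5% and 19.8%, and there replicate 4 was most often highest (40.3%) and replicate 1 most often lowest (39.3%). Without replicate 1, 900 of the 1337 (67.3%) were again among the variable genes, without replicates 1 and 4, 733 (54.8%), and after removal of linear trends with GC content and length, 947 (70.8%).

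**Figure D4:**
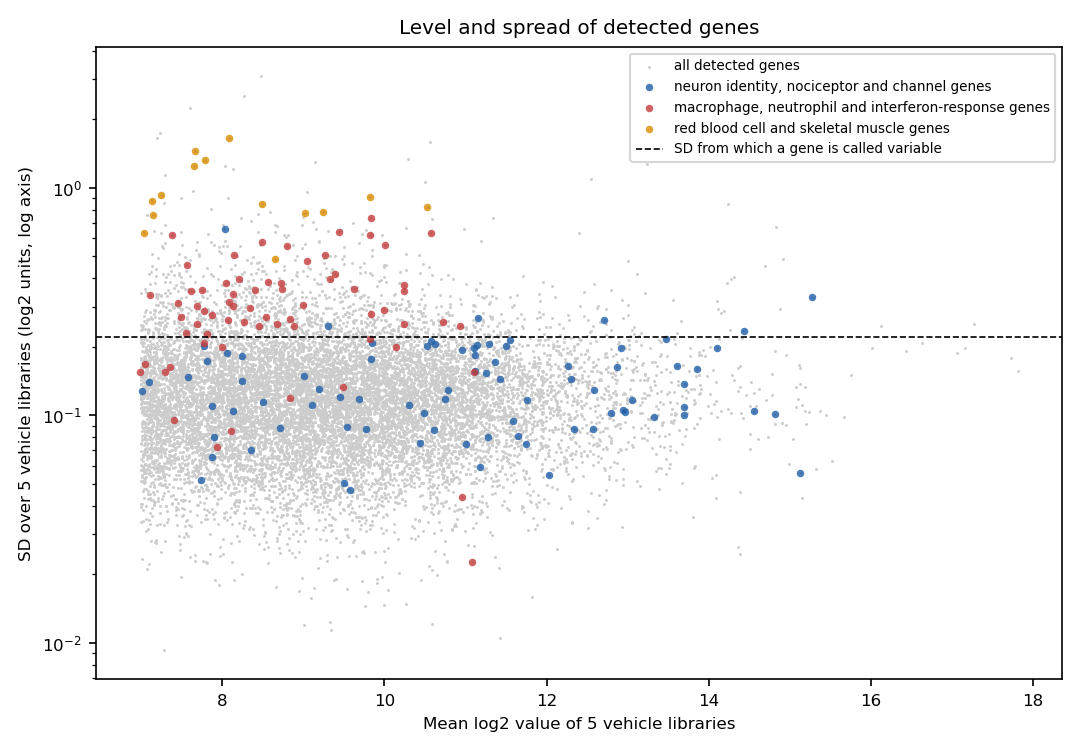
Mean deposited log2 value and SD over the 5 vehicle libraries (log2 units, log axis) of every detected gene, with neuronal genes in blue, macrophage, neutrophil and interferon-response genes in red and red blood cell and skeletal muscle genes in orange. Most neuronal genes lie below the dashed line at an SD of 0.221, most of the red ones above it and all of the orange ones well above it.

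The median spread of detected genes was 0.12 in the vehicle libraries, 0.13 in the 6 fusion protein libraries and 0.14 in the 5 combination libraries. These were not tested against each other. Without replicate 1 the vehicle value was 0.0959 and without replicate 4 it was 0.102.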

How the data were processed

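RNA of DRG L3 to L5 was extracted with Trizol and sequenced after polyA selection, per the labels' protocols. Per the submitters' processing notes, FastQC, STAR, HTSeq, DESeq2 and build GRCm38 were used, with no versions given; the strand setting is not given in the sources used here, so antisense overlaps cannot be separated. For 36722 genes the authors deposited log2 values after variance stabilisation. GC content was deposited by the authors in percent, per the file headers. A deposited p-value and adjusted p-value per gene, whose headers name no comparison, were not used.

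There were 11441 distinct values. Fitting 2 parameters of the stabilising function to the lowest 60 turned 100% of all of them into whole numbers (tolerance 0.01). These are scaled values, not read counts, so depth and counting error are unknown. Levels used exon lengths from GENCODE vM21 for 36429 genes. The scripts (Python 3.11.15, numpy 2.4.6, pandas 2.3.3) were tested on simulated data. Libraries were grouped by their titles; no test was made within 1 group.

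The 39 gene lists and the genes of interest were chosen with earlier results of these data known, and 2 listed genes, Drgx and Ighd, were not used here. Some listed genes enter the counts and medians and are not reported here by name. The text names list members by level (up to 8 per list), members near or below the detection level, variable members, and some of the 20 highest and 20 most variable genes with an established symbol; other genes are said to have been chosen after their values were seen. Alternatives were stricter detection, other lengths, totals and normalizations, and leaving out libraries.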

Additional observations from a re-analysis of the deposited data

Results flagged for a closer look

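In 238 groups of 5 values (39 list deviations, 196 printed genes and 3 properties of the libraries), a single library was set against the other 4 by the size of its gap, a rule that chance meets in about 1 of 20 groups. In all, 14 groups met it, a number near what chance gives at that rate. Replicates 1, 4 and 5 accounted for all 14, but the groups share the same 5 libraries and are not independent. Replicate 4 lay above the others in the non-peptidergic nociceptor list (0.14, others -0.04 to -0.02) and in the myelinated neuron list (0.16, others -0.09 to -0.02), both as log2 deviations, and in the deposited log2 values of Gabbr1 (13.19, others 12.92 to 12.95) and Scn4b (12.81, others 12.49 to 12.57). Replicate 1 lay above the others for Rn7sk (12.58), Rpph1 (11.53), Ptger3 (8.13) and Il2rg (7.24), and below them for Scn1a (11.98, others 12.30 to 12.41) and Cd3e (6.30), the last of which is near the floor. Replicate 5 lay above the others for Scn10a (14.74, others 14.47 to 14.54), Glul (13.38, others 12.87 to 13.00) and Npy (6.47, near the floor), and below them for Adgre1 (7.40, others 7.79 to 7.90).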

How the results depend on the processing

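No paired analysis was possible because the values describe 1 group and come from no test. Named here are 7 lists. The count of detected genes lay between 13348 and 13380 without any single library, was 10570 with a stricter detection step and 12836 when detection was asked of every library.

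List levels moved with the denominator and the gene model. With mitochondrial genes, Lars2 and Malat1 left out of the total, the median level was 264.0 ppm for neuronal identity (main value 220.2), 97.98 for sodium channels (81.5), 75.79 for satellite glia (63.1), 57.66 for myelinating Schwann cells (48.0), 12.70 for macrophages (10.6) and 32.15 for interferon-response genes (26.7). With the longest transcript as length it was 302.3 for neuronal identity and 56.34 for satellite glia, and over detected members alone 58.30 for myelinating Schwann cells and 21.71 for neutrophil genes (13.1). Without single libraries the levels ranged from 211.1 to 226.6 for neuronal identity, 78.70 to 85.04 for sodium channels, 61.98 to 64.00 for satellite glia, 45.76 to 49.68 for myelinating Schwann cells, 10.17 to 11.19 for macrophages, 11.71 to 14.40 for neutrophil genes and 25.28 to 28.16 for interferon-response genes.

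The range of a list's median deviation over the libraries depended on replicates 1, 4 and 5. Without single libraries it lay between 0.12 and 0.34 for sodium channels (lowest without replicate 4), 0.10 and 0.17 for satellite glia (lowest without replicate 1), 0.25 and 0.54 for myelinating Schwann cells (lowest without replicate 5), 0.23 and 0.52 for macrophages (lowest without replicate 1), 0.12 and 0.16 for neuronal identity, 0.73 and 1.06 for neutrophil genes and 0.34 and 0.57 for interferon-response genes. Without replicates 1 and 4 together, an alternative chosen after seeing the data, it was 0.03 for sodium channels, 0.08 for satellite glia and 0.21 for macrophages. Removal of trends with GC content and length, also chosen after seeing the data, gave 0.08 for satellite glia. Quantile normalization gave 0.19 for sodium channels, and log2 of the decoded value plus 1 gave 0.74 for macrophages.

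Counts of variable genes without single libraries ranged from 3 to 6 for neuronal identity, 1 to 2 for sodium channels (0 without replicates 1 and 4), 9 to 13 for satellite glia, 4 to 14 for myelinating Schwann cells, 14 to 18 for macrophages, 10 to 11 for neutrophil genes and 14 to 23 for interferon-response genes; replicate 5 set the lowest count for neuronal identity, myelinating Schwann cells and interferon-response genes. The median spread of the vehicle libraries ranged from 0.0959 (without replicate 1; 0.102 without replicate 4) to 0.125. The unknown depth limits what can be said of genes near the detection level.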

Other observations

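Genes of the acute-phase and metal response, chosen after their values were seen, had among the largest spreads of all detected genes. Mt2 and Mt1, metallothioneins that bind zinc, differed between the libraries: Mt2 was at 1228, 419, 159.7, 117 and 912 ppm and Mt1 at 513, 238, 118, 80.8 and 427 ppm. Saa1 and Saa2, serum amyloid genes of the acute phase, did so too: Saa1 was at 22.8, 6.06, 1.33, 0.746 and 14.4 and Saa2 at 17.8, 3.53, 0.875, 0.408 and 10.8, and reads of these similar copies may be shared. In all 4 genes the order of the libraries was replicate 1, 5, 2, 3 and 4 from highest to lowest, which is also the order of Gfap and Socs3. Timp1, an inhibitor of matrix proteases, was at 159, 72.1, 53.4, 17.4 and 69.3 and Cebpd, a transcription factor of the acute phase, at 24.4, 7.00, 2.41, 2.69 and 7.41, both highest in replicate 1. Other variable genes of these groups had another order: the metallothionein Mt3 was at 278, 187, 216, 166 and 286 and Lcn2, lipocalin of the acute phase, at 45.7, 32.6, 41.5, 14.2 and 22.9. Sgk1, a kinase gene that was also variable, was highest in replicate 5, at 30.4, 31.9, 25.6, 28.6 and 40.4.

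Genes known from the leptomeninges that cover roots and ganglia formed another uneven set, also chosen after their values were seen. Ptgds, prostaglandin D synthase, was at 232, 892, 1493, 483 and 1531 ppm, the transporter Slc6a20a at 1.61, 9.58, 17.3, 10.8 and 17.0 and the transporter Slc22a8 at 0.419, 4.27, 8.00, 3.20 and 8.65. Replicates 3 and 5 were the highest libraries and replicate 1 the lowest for each of these 3.

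Mitochondrially encoded messages were split in the deposited values. Of 13 genes 7 were detected, led by mt-Cytb at 33249, 45328, 38495, 44091 and 39649.9 ppm, and mt-Co2, mt-Co3, mt-Atp6, mt-Atp8, mt-Nd3 and mt-Nd4l sat at or near the floor in every library. These 6 are genes of the same polycistronic transcript, and why they carry almost no signal in the table was not tested. Genes of the mitochondrial genome made up 16.6 ± 2.00% of the summed levels. Prg2, a granule gene of eosinophils, was chosen after its values were seen. It was at 129.9, 59.5, 74.4, 20.3 and 27.6 ppm, with replicates 4 and 5 below the others, as for the neutrophil genes.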
